A study of Mus musculus with 24 samples.

Results

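Kruppel-like factors are transcription factors that share carboxy-terminal zinc fingers and bind GC-rich and CACCC-type DNA. The transcripts of 10 of them were followed through cleavage of mouse embryos in which MERVL, the murine endogenous retrovirus-L transcribed in a burst at the 2-cell stage, had been depleted. The genes (Klf2, Klf3, Klf4, Klf5, Klf6, Klf9, Klf10, Klf13, Klf16 and Klf17) were taken by name from a list and not by a rule on measured values. The list was, however, chosen with earlier results of these data known. They were 10 of the 55291 genes, and of the 56326 genes and repeat families, that the count tables hold. Zygotes came from superovulated 8-week-old B6D2F1 females mated with males of the same cross, although the strain field of the labels reads BDF2. Each male pronucleus was injected with 20 µM antisense oligonucleotides (ASOs) against MERVL (MERVL-KD) or with a scrambled ASO (control), so every embryo carried an injection and no uninjected embryo is among the groups. Embryos were cultured and collected at the 2-cell (labelled 1.5 days postcoitum), 4-cell and 8-cell stages (both labelled 2.5), with 2 libraries of 30 pooled embryos per stage and treatment, 12 in all. A library therefore averages 30 embryos, and in such bulk samples fewer cells of a type and less RNA per cell cannot be told apart.

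Members of the family work as activators or as repressors, and several compete for the same sites. Klf2, Klf4 and Klf5 act redundantly in the pluripotency network that follows cleavage, and Klf5 is needed for the trophectoderm and the inner cell mass of the blastocyst. Klf17 is known as an abundant factor of the oocyte and early embryo. Klf3 recruits the corepressor CtBP, whereas Klf9, Klf10, Klf13 and Klf16 recruit the corepressor Sin3a. Klf10 was first described as a gene that responds early to TGF-beta.

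Each library held between 28167085 and 41482526 counts assigned to genes or repeat families, of which 15.8 to 25.2% fell in repeat families. The internal part of MERVL took 1.07 to 6.57% of the counts in the control libraries and 0.0278 to 0.157% in the MERVL-KD libraries, with no overlap between treatments. Counts of a group's libraries were further apart than sampling noise allows (10.38 to 17.74 chi-square units per degree of freedom), so no pair agreed within counting error. All 8 markers of the 2-cell and cleavage stages and all 11 oocyte markers had counts in every library. The summed level of the oocyte markers fell from 689 to 694 in control 2-cell embryos to 64.4 to 65.8 at the 4-cell stage. The 6 sperm markers summed to at most 2.08 and the 14 cumulus cell markers to between 9.89 and 13.5 in any library. Levels are given as RPKM, TMM-scaled counts normalised for library size and exonic length, so that genes can be compared with each other. Folds and adjusted p-values come from edgeR (quasi-likelihood test, Benjamini-Hochberg over all genes and repeat families tested), and the 2 libraries per group limit every test. "Rose" and "fell" stand for an adjusted p under 0.05, and a gene is said to be called when it also changed at least 2-fold.

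The 5′ flanks of 4 genes are shown because these genes carried the main patterns below: Klf17 was the most abundant family member, Klf2 rose most steeply, Klf4 did not pass between successive stages and Klf3 was the member that differed with the knockdown at every stage. The sequences are RefSeq's, from GRCm38.p6, and stop at the base before the first annotated start. They were found for 7 of the 10 members (Klf2, Klf3, Klf4, Klf6, Klf9, Klf13 and Klf17), and the table used held no entry for Klf5, Klf10 and Klf16. Klf17 is at chr4:117765667-117765916 (minus strand), Klf2 at chr8:72318812-72319032 (plus), Klf4 at chr4:55532476-55532725 (minus) and Klf3 at chr5:64803271-64803387 (plus). They are written 5′ to 3′ along the gene, and capitals mark the GC box, GGGCGG, and the CACCC box. Each was searched on both strands, and a match on the other strand is marked as its reverse complement.
Klf17: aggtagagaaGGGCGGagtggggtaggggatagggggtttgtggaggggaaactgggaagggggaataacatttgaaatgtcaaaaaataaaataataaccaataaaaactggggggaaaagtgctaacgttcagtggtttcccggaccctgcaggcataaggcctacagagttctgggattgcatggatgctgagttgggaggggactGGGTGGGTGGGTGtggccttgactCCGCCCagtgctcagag
Klf2: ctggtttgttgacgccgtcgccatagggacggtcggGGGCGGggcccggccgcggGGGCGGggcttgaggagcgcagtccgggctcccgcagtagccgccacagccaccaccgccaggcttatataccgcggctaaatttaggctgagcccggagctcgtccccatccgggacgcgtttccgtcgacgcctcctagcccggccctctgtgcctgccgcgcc
Klf4: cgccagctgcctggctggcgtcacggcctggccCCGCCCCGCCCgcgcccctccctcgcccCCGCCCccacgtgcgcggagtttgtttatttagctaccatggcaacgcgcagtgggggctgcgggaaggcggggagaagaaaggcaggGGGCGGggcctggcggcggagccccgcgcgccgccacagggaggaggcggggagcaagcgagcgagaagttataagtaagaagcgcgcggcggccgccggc
Klf3: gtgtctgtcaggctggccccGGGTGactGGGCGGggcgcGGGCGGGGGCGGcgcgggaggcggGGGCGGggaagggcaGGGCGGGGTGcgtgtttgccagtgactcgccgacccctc

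The flank of Klf17 stood apart in base composition. It held 52.0% G and C and 4 CpG dinucleotides, an observed-to-expected CpG ratio of 0.301, close to the median of 0.373 over 32817 RefSeq promoters. The ratio was 0.992 for Klf2, 0.941 for Klf4 and 0.852 for Klf3, above the upper quartile of 0.723. Counting both strands and matches that overlap, GC boxes were found 2 times in the flank of Klf17, 2 times in that of Klf2, 4 times in that of Klf4 and 5 times in that of Klf3. CACCC boxes were found 3 times in Klf17 and 2 times in Klf3. Among all promoter windows of that table, 32.7% held a GC box and 52.0% a CACCC box, so neither motif is rare. These matches describe letters and are not binding sites. The windows printed for Klf2 (221 bases) and Klf3 (117 bases) are shorter than the 250 bases behind the shares. No site of the 3 MERVL ASOs with up to 4 mismatches was found on either strand of the 169450 bases that the 10 genes span, and none of the scrambled ASO.

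In control 2-cell embryos Klf17 was the most abundant of the 10 members. Its level was 171 and 178 RPKM in both libraries, which was 52.4 to 53.5% of the summed level of the 17 Kruppel-like factor genes found in the files. Klf4 (39.9 and 41.6 RPKM) and Klf16 (37.1 and 41.3 RPKM) came next and overlapped each other. Klf5 (12.1 and 14.7), Klf10 (12.7 and 14.6) and Klf9 (11.7 and 12.8) formed the next tier of the members, whose libraries also overlapped. Klf2 (3.28 and 4.80), Klf13 (2.68 and 3.19), Klf3 (0.983 and 1.45) and Klf6 (0.626 and 1.03) were the lowest of the 10. Klf3 and Klf6 overlapped each other, and the gap between Klf2 and Klf13 was smaller than the difference between both Klf2 libraries.

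By the 8-cell stage 3 genes shared the lead in control embryos. Klf17 was at 121 and 111 RPKM, Klf2 at 104.8 and 108.9 and Klf5 at 94.96 and 102.9. Their ranges came within a few RPKM of each other without overlapping. Klf4 followed at 46.0 and 45.8 RPKM, ahead of Klf16 (18.4 and 22.9) and Klf9 (21.7 and 16.8), which overlapped. Klf10 was at 7.96 and 10.7, Klf13 at 6.23 and 6.05, Klf3 at 2.56 and 2.65 and Klf6 at 0.0330 and 0.122 RPKM. The 10 genes made up 91.7 to 97.2% of the summed level of the 17 in each library, and Klf11 was the most abundant of the others at the 2-cell stage, with 5.03 to 5.96%. In control 2-cell embryos its level lay between those of Klf16 and Klf5.

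**Figure D1:**
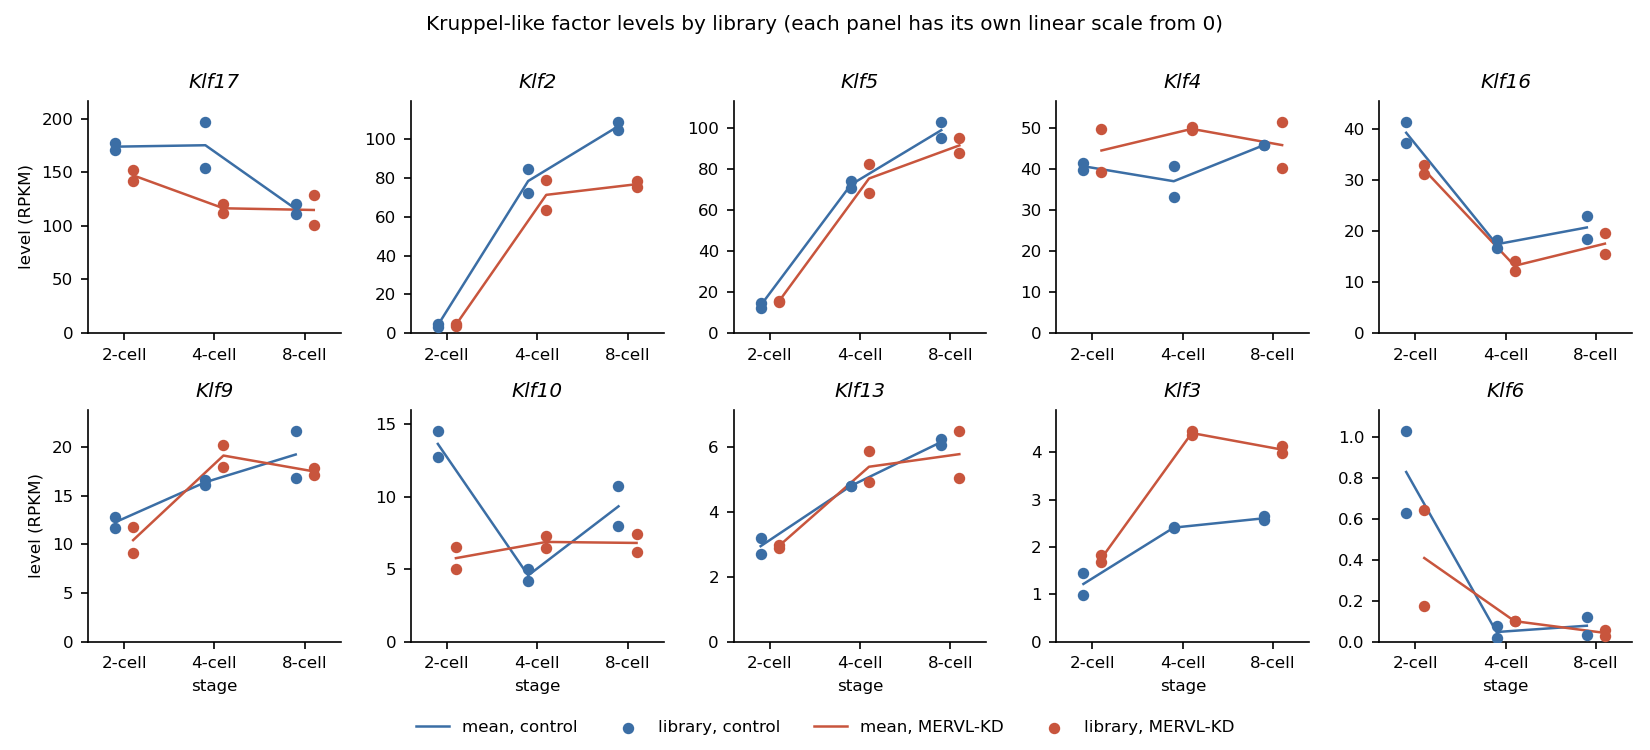
Level in RPKM of each of the 10 genes (y axis, linear from 0, a separate scale per gene) by stage (x axis) in control and MERVL-KD embryos; points are the 2 libraries per group and lines join group means. Klf2 and Klf5 climb steeply after the 2-cell stage, and Klf16 and Klf6 drop. The treatments separate, among others, for Klf10 at the 2-cell stage, Klf17 at the 4-cell stage, Klf2 at the 8-cell stage and Klf3 throughout. Libraries are also apart elsewhere, as for Klf10 and Klf4 at the 4-cell stage and Klf16 at the 2-cell and 4-cell stages.

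More members changed between the 2-cell and the 4-cell stage than between the 4-cell and the 8-cell stage. In control embryos 2 members were called higher (Klf2 and Klf5) and 3 lower (Klf6, Klf10 and Klf16), so 5 of 10, against a background of 45% of all genes tested. At any fold 8 members passed, 5 of them higher and 3 lower, against 55.1% of all genes. The median log2 change was 0.21 over the 10 members and -0.06 over all genes tested. In MERVL-KD embryos 5 of 10 were called, Klf2, Klf3 and Klf5 higher and Klf6 and Klf16 lower (44.1% of all genes), and 8 passed at any fold (54.4% of all genes). The shares of members called were thus close to those of all genes at 2-fold.

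Klf2, an activator of the pluripotency network and the target of MEK5 and ERK5 signalling in stem cells, rose by the largest factor among the members. Its level went from 3.28 and 4.80 RPKM in control 2-cell embryos to 72.3 and 84.7 at the 4-cell stage, and in MERVL-KD embryos from 3.83 and 4.65 to 63.6 and 79.1. The stages do not overlap in either treatment. The rise was 19.4-fold in control (log2 4.28 ± 0.17, SE; adjusted p = 5.31e-14) and 16.9-fold in MERVL-KD embryos (log2 4.08 ± 0.17; adjusted p = 7.69e-14). Klf5, which is required in both lineages of the blastocyst, went from 12.1 and 14.7 to 70.7 and 73.9 RPKM in control embryos, and from 15.7 and 14.9 to 82.3 and 68.4 in MERVL-KD embryos. Again the stages are apart in all libraries. Its rise was 5.39-fold in control (log2 2.43 ± 0.11, adjusted p = 1.17e-13) and 4.92-fold in MERVL-KD embryos (log2 2.30 ± 0.11, adjusted p = 2.36e-13).

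Klf13, Klf9 and Klf3, which recruit corepressors, rose by less than Klf2 and Klf5. Klf13 went from 2.68 and 3.19 to 4.79 and 4.79 RPKM in control embryos (log2 0.71, adjusted p = 0.000397) and rose by a log2 of 0.87 with the knockdown (adjusted p = 3.71e-05). Klf9 went from 11.7 and 12.8 to 16.7 and 16.1 RPKM in control embryos (log2 0.42, adjusted p = 0.0116) and from 11.7 and 9.13 to 20.3 and 18.0 with the knockdown (log2 0.87, adjusted p = 9.69e-06). Both stayed below 2-fold, except Klf9 with the knockdown without replicate 1 of the MERVL-KD 2-cell embryos (log2 1.09). The control rise of Klf9 was lost without replicate 1 of either stage (adjusted p = 0.107 without the 2-cell and 0.0619 without the 4-cell library). Klf3 rose 1.97-fold in control (log2 0.98, adjusted p = 2.15e-05) and 2.50-fold in MERVL-KD embryos (log2 1.32, adjusted p = 3.17e-07). The control rise lay at the edge of 2-fold and was called in 5 alternatives that kept the threshold, with log2 values from 1.00 to 1.30, among them 1.16 with scaling by library size. Klf4, a reprogramming factor, did not pass in either treatment, with log2 changes of -0.14 and 0.16.

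Klf16 and Klf6 fell in both treatments, and Klf10 fell in control embryos. Klf16, a Sin3a-dependent repressor, fell from 37.1 and 41.3 to 16.6 and 18.1 RPKM in control embryos (log2 -1.17, adjusted p = 2.16e-07) and from 31.0 and 32.8 to 14.2 and 12.1 with the knockdown (log2 -1.28, adjusted p = 6.72e-08). No 4-cell library reached a 2-cell library. Klf6 rested on few counts. It had 142 and 100 counts in control 2-cell embryos, 12 and 2 at the 4-cell stage and 4 and 16 at the 8-cell stage, and with the knockdown 32 and 100, then 16 and 15, then 4 and 10. The control fall passed (log2 -4.08 ± 0.80, adjusted p = 0.000181). That in MERVL-KD embryos (log2 -2.02 ± 0.73, adjusted p = 0.0243) was lost without replicate 2 of the 2-cell embryos (adjusted p = 0.505) and without either 4-cell library (adjusted p = 0.0853 and 0.0857).

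Between the 4-cell and the 8-cell stage 1 member was called in control embryos, Klf10, where 1.56% of all genes were called. At any fold, Klf5 also rose (log2 0.45, adjusted p = 0.0149) and Klf17 fell (log2 -0.60, adjusted p = 0.00491), against 5.87% of all genes. The rise of Klf5 passed neither without replicate 1 or 2 of the control 4-cell embryos nor without replicate 2 of the control 8-cell embryos (adjusted p from 0.0626 to 0.140), nor with scaling by library size (log2 0.25, adjusted p = 0.180), and the fall of Klf17 was lost without replicate 2 of the control 4-cell embryos (log2 -0.41, adjusted p = 0.112). Klf2 missed the threshold (log2 0.44, adjusted p = 0.0698) and passed it in 7 of 14 alternatives (adjusted p from 0.00768 to 0.400). In MERVL-KD embryos no member was called, where 1.64% of all genes were. None passed at any fold with edgeR either, against 4.68% of all genes, 2 members (Klf5 and Klf16) had an unadjusted p under 0.05, and DESeq2 passed 1 of them, Klf16 (log2 0.43, adjusted p = 0.0385), which also passed without replicate 1 of the MERVL-KD 8-cell embryos (adjusted p = 0.0310).

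**Figure D2:**
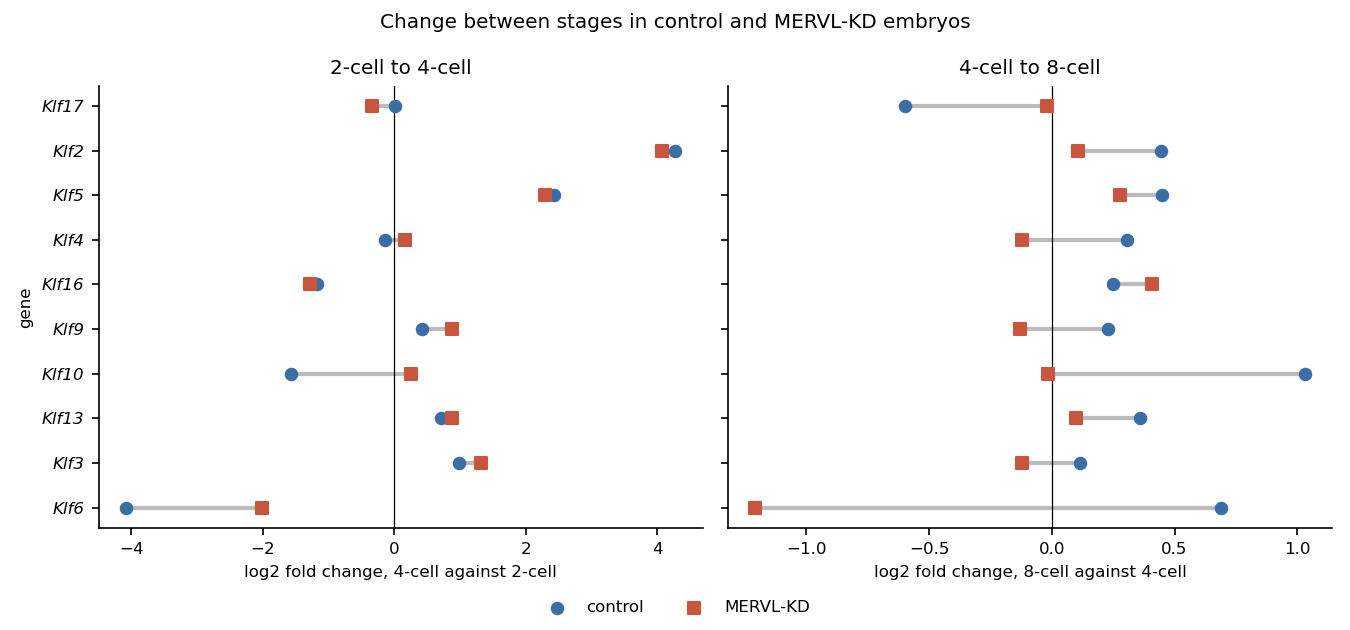
Log2 fold change between successive stages (x axis, a separate scale per panel) for each gene (y axis) in control (circles) and MERVL-KD embryos (squares), with a grey line joining both. From the 2-cell to the 4-cell stage Klf10 sits at -1.58 in control and 0.26 in MERVL-KD embryos, while Klf2, Klf5 and Klf16 lie close together; the values of Klf6 rest on few counts.

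The make-up of the family's transcript pool followed. The share of Klf17 in control embryos went from 52.4 to 53.5% at the 2-cell stage to 38.8 to 44.1% at the 4-cell and 24.9 to 27.6% at the 8-cell stage. That of Klf2 went from 1.03 to 1.42%, through 18.3 to 18.95%, to 23.9 to 24.5%. That of Klf5 went from 3.80 to 4.35%, through 16.5 to 17.9%, to 21.6 to 23.1%. The shares of Klf2 and Klf5 thus grew while that of Klf17 shrank. In MERVL-KD embryos Klf17 already held no more than 29.8 to 31.7% at the 4-cell stage, below both control libraries, but its 26.3 to 31.7% at the 8-cell stage overlapped the control range. The summed level of all 17 genes was 319 and 339 RPKM in control and 284.7 and 285.1 in MERVL-KD embryos at the 2-cell stage, 396 and 447 against 378 and 380.4 at the 4-cell stage, and 439 and 445 against 406 and 384 at the 8-cell stage. At the TMM scaling used, each MERVL-KD library was below both control libraries of its stage, and no test was run on this sum. Its order depends on the scaling, and the sum was not recomputed with library size. That scaling turned the 2-cell knockdown effect on Klf17, the largest part of the sum, to a log2 of 0.13. It moved the median log2 change of all genes at that stage to 0.30.

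**Figure D3:**
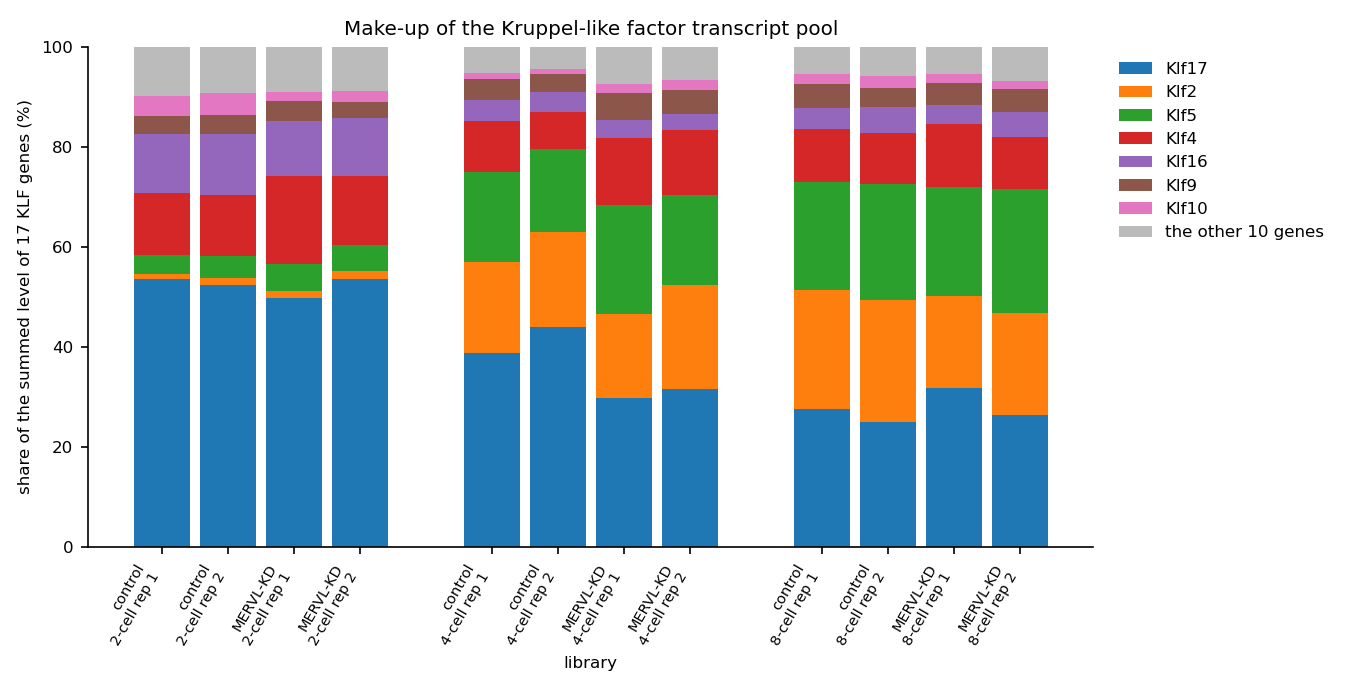
Share in percent (y axis, from 0) that each gene takes of the summed RPKM of 17 Kruppel-like factor genes in each of the 12 libraries (x axis), ordered by stage and treatment; the grey segment sums the other 10 genes. Klf17 takes 49.8 to 53.6% of the pool at the 2-cell stage and 24.9 to 31.7% at the 8-cell stage, and its 4-cell share is lower in both MERVL-KD libraries.

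With the knockdown few members passed 2-fold. At the 2-cell stage 1 of the 10 members was called (Klf10, lower), against 6.61% of all genes, and at any fold Klf3 also rose, against 14.1% of all genes. At the 4-cell stage none was called, against 4.54%, while at any fold 3 rose (Klf3, Klf4 and Klf10) and 1 fell (Klf17), against 10.8%. At the 8-cell stage none of the 9 members tested was called, against 1.7%, while Klf3 rose and Klf2 fell at any fold, against 5.06%. Beside these edgeR counts of 0 at the 4-cell and 8-cell stages, DESeq2 also called 0, and 5 and 3 members had an unadjusted p under 0.05. The median log2 change of the members was -0.03, 0.20 and -0.10 at the 3 stages, beside 0.01, 0.03 and 0.01 over all genes tested.

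**Figure D4:**
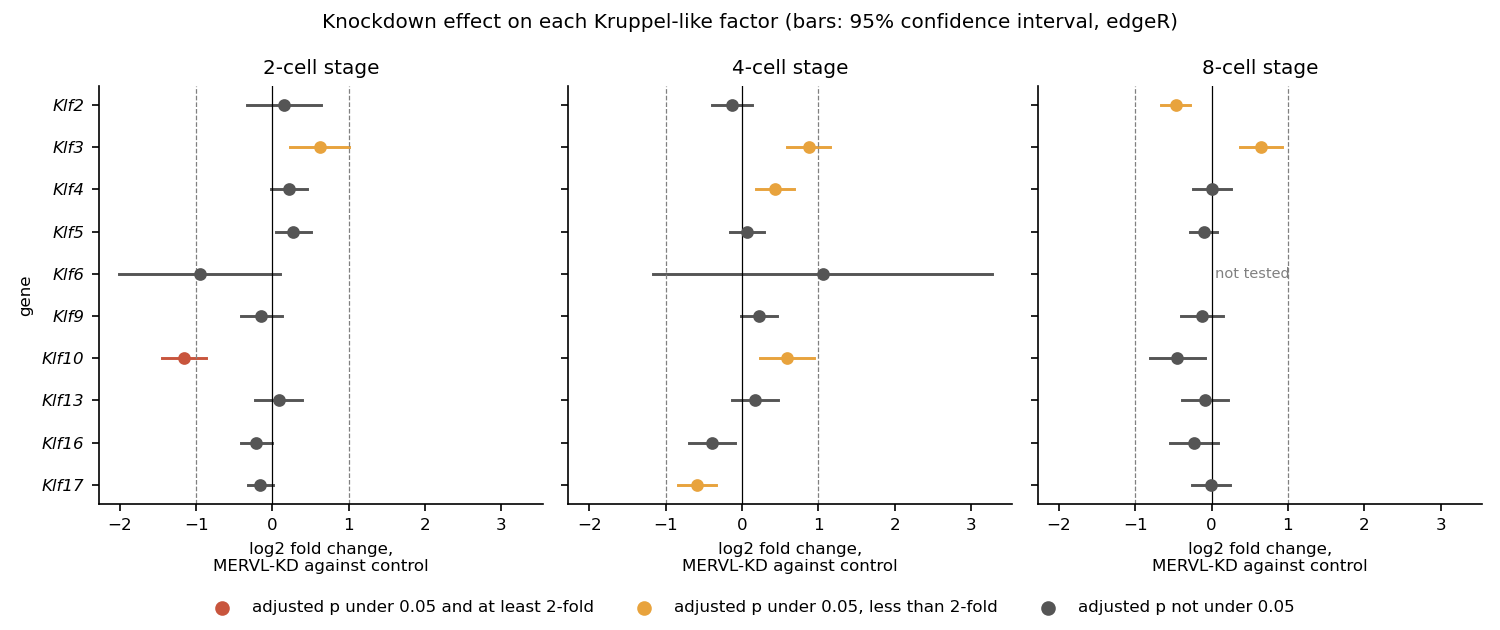
Log2 fold change of MERVL-KD against control (x axis, the same scale in each panel; bars are 95% confidence intervals from edgeR, dashed lines mark 2-fold) for each gene (y axis) at each stage. Klf10 at the 2-cell stage (-1.16) is the gene both past 2-fold and past the adjusted p, Klf3 lies between 0.62 and 0.88 at all 3 stages, and Klf6 has wide intervals and was not tested at the 8-cell stage.

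Klf10, the TGF-beta-responsive repressor, fell with the knockdown at the 2-cell stage. Control libraries were at 12.7 and 14.6 RPKM and MERVL-KD libraries at 5.02 and 6.50. The treatments are far apart, and the MERVL-KD values lie near the control level of the next stage. The fall was 2.24-fold (log2 -1.16 ± 0.14, 95% interval -1.45 to -0.87, adjusted p = 3.28e-05). It passed the adjusted p in all 14 alternatives, with log2 values from -1.36 to -0.87, and missed 2-fold when libraries were scaled by their size alone, a scaling that moved the median log2 change of all genes to 0.30. At the 4-cell stage the order was the opposite, with 4.99 and 4.15 RPKM in control and 6.45 and 7.31 in MERVL-KD embryos. The libraries do not overlap there either (log2 0.59 ± 0.16, adjusted p = 0.0375). That rise was lost without replicate 2 of the control (adjusted p = 0.265), without replicate 2 of the MERVL-KD embryos (adjusted p = 0.0987) and with the replicate number as a block (adjusted p = 0.0600). At the 8-cell stage, levels of 7.96 and 10.7 in control and 7.43 and 6.20 RPKM in MERVL-KD embryos gave a log2 of -0.45 (adjusted p = 0.157), which passed without MERVL-KD replicate 1 (log2 -0.59, adjusted p = 0.0180).

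Seen by stage, Klf10 fell and rose again in control embryos, and passed at neither step in MERVL-KD embryos. The later step is between embryos of the same labelled age. In control it fell 2.98-fold from the 2-cell to the 4-cell stage (log2 -1.58, adjusted p = 9.08e-08) and rose 2.04-fold to the 8-cell stage (log2 1.03, adjusted p = 0.00146). That rise passed the adjusted p in all alternatives but was under 2-fold (log2 0.79 to 0.91) without replicate 2 of the control 4-cell embryos, without replicate 2 of the control 8-cell embryos and with scaling by library size. In MERVL-KD embryos the changes were a log2 of 0.26 (95% interval -0.10 to 0.61, adjusted p = 0.217) and -0.02 (-0.37 to 0.34, adjusted p = 0.987). The knockdown effect at the 4-cell stage exceeded that at the 2-cell stage by a log2 of 1.83 ± 0.24 (adjusted p = 0.000159), which passed in all 16 alternatives. Klf10 was the member that passed this test of the difference, out of 10, where 4.16% of all genes passed. The difference between the 8-cell and the 4-cell effect was a log2 of -1.05 ± 0.24 (adjusted p = 0.0512). It passed in 9 of 16 alternatives, with adjusted p from 0.00131 to 0.225, and in the fit as planned no member passed with edgeR, where 0.624% of all genes did. With DESeq2 1 did, Klf10, and 3 members had an unadjusted p under 0.05.

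Klf3, the CtBP-dependent repressor, was higher with the knockdown at every stage. At the 2-cell stage control libraries had 0.983 and 1.45 RPKM and MERVL-KD libraries 1.84 and 1.69. At the 4-cell stage the values were 2.43 and 2.39 against 4.46 and 4.36, and at the 8-cell stage 2.56 and 2.65 against 4.14 and 3.98. Treatments did not overlap at any stage, and replicates were tight from the 4-cell stage on. The log2 changes were 0.62 ± 0.18 (adjusted p = 0.0344), 0.88 ± 0.13 (adjusted p = 0.00131) and 0.65 ± 0.13 (adjusted p = 0.0135), or 1.53-, 1.84- and 1.57-fold. The rise at the 4-cell stage passed in all 14 alternatives. That at the 2-cell stage was lost without replicate 1 of the control (log2 0.36, adjusted p = 0.339) or of the MERVL-KD embryos (adjusted p = 0.0626), and that at the 8-cell stage without replicate 1 of the control (adjusted p = 0.0582). The effect did not differ detectably between stages (4-cell minus 2-cell log2 0.34, 95% interval -0.13 to 0.81; 8-cell minus 4-cell -0.23, -0.69 to 0.23). The antisense gene Gm20033 overlaps 404 bases, 3.59% of the exonic length of Klf3, and had 2 to 30 counts in any library, against 347 to 1827 for Klf3.

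Klf17 fell at the 4-cell stage. Control libraries were at 154 and 197 RPKM and MERVL-KD libraries at 112.5 and 120.5. The treatments do not overlap, although the control libraries differed from each other by more than the lower one differed from the MERVL-KD libraries. The change was a log2 of -0.58 ± 0.11 (1.50-fold, adjusted p = 0.00720), and without control replicate 2 it was -0.40 (adjusted p = 0.0757). At the 2-cell stage 171 and 178 against 142 and 153 RPKM gave a log2 of -0.16 (adjusted p = 0.221; 0.13 with scaling by library size), and at the 8-cell stage 121 and 111 against 129 and 101 RPKM gave -0.00 (adjusted p = 0.992). From the 2-cell to the 4-cell stage Klf17 fell in MERVL-KD embryos (log2 -0.34, adjusted p = 0.0213), but not without replicate 2 of the 2-cell embryos (adjusted p = 0.148) or replicate 1 of the 4-cell embryos (adjusted p = 0.113). In control it had a log2 of 0.01 (adjusted p = 0.947). The difference between the 4-cell and the 2-cell effect, a log2 of -0.35 ± 0.17, did not pass (adjusted p = 0.294) except with scaling by library size (log2 -0.65, adjusted p = 0.0326), nor did that between the 8-cell and the 4-cell effect (log2 0.58 ± 0.17, adjusted p = 0.130), which passed in 2 of 16 alternatives, with no filter (adjusted p = 0.0300) and without MERVL-KD replicate 2 of the 8-cell stage (adjusted p = 0.0109).

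None of the 3 pluripotency factors changed 2-fold. Klf2 fell at the 8-cell stage, where control libraries were at 104.8 and 108.9 RPKM and MERVL-KD libraries at 75.2 and 78.5. The treatments are clearly apart, with a log2 of -0.47 ± 0.09 (1.38-fold, adjusted p = 0.0103). The adjusted p was 0.0556 without control replicate 2 and 0.0629 when all 12 libraries were fitted together. At the earlier stages Klf2 had log2 changes of 0.15 (95% interval -0.33 to 0.64) and -0.13 (-0.40 to 0.13), which did not pass. Klf4 was at 40.9 and 33.3 RPKM in control and 50.2 and 49.5 in MERVL-KD 4-cell embryos and rose there (log2 0.43 ± 0.11, adjusted p = 0.0307). Without control replicate 2, the lower library, that was no longer so (log2 0.28, adjusted p = 0.382). At the 2-cell stage Klf4 was at 39.9 and 41.6 RPKM in control and 49.9 and 39.3 in MERVL-KD embryos, and at the 8-cell stage at 46.0 and 45.8 against 51.5 and 40.3. The treatments overlap at both stages, with log2 changes of 0.22 (adjusted p = 0.222) and 0.01. The 2-cell value passed with scaling by library size (log2 0.50, adjusted p = 0.00360) and without MERVL-KD replicate 2 (log2 0.37, adjusted p = 0.0139). Klf5 did not pass at any stage, with log2 changes of 0.27 (0.04 to 0.51), 0.06 (-0.16 to 0.29) and -0.10 (-0.28 to 0.07). Its 2-cell value passed with scaling by library size (log2 0.57, adjusted p = 0.00108) and without control replicate 2 (log2 0.40, adjusted p = 0.0420).

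Among the other members no knockdown effect passed in the fit as planned. Klf16 was lower in both MERVL-KD libraries than in both controls at the 2-cell and 4-cell stages (31.0 and 32.8 against 37.1 and 41.3 RPKM, then 14.2 and 12.1 against 16.6 and 18.1), and at the 8-cell stage 15.5 and 19.5 overlapped 18.4 and 22.9. Its log2 changes of -0.21, -0.39 and -0.23 had adjusted p-values of 0.165, 0.0918 and 0.432, and the 4-cell value passed without MERVL-KD replicate 1 (log2 -0.52, adjusted p = 0.0321). Klf9 had log2 changes of -0.15, 0.23 and -0.13, with 95% intervals inside -0.42 to 0.46. Those of Klf13 were 0.08, 0.17 and -0.08, inside -0.39 to 0.47. For Klf6 a log2 of -0.95 ± 0.49 at the 2-cell stage did not pass (adjusted p = 0.235). It did without control replicate 2 (log2 -1.29, adjusted p = 0.0238) and without MERVL-KD replicate 2 (log2 -2.18, adjusted p = 8.55e-05). The 4-cell value of 1.06 had an interval of -1.16 to 3.28, and at the 8-cell stage Klf6 was too low to be tested.

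Genes that act with the family were read from lists. Among all genes 6.61, 4.54 and 1.7% were called with the knockdown at the 2-cell, 4-cell and 8-cell stages. At any fold 14.1, 10.8 and 5.06% passed. Of the 7 Kruppel-like factors outside the 10 that are in the files, none was called at any stage (5 tested at each), and at any fold 1 rose (in 4-cell embryos). None of the 9 Sp factors, which share the GC-box target, was called at the 4-cell or 8-cell stage (7 tested), and 1 (Sp5) was called higher at the 2-cell stage. It had 17 and 20 counts in control and 102 and 70 in MERVL-KD embryos (log2 2.09 ± 0.44, adjusted p = 0.00418, and 0.244 with all 12 libraries in 1 fit).

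Of 16 cofactors and ubiquitin ligases 1 was called lower in 4-cell and 1 in 8-cell embryos, in both cases Sin3a, the corepressor used by Klf9, Klf10, Klf13 and Klf16. At any fold 2 of the 16 fell and 1 rose at the 2-cell stage (14.1% of all genes passed). At the 4-cell stage 4 fell and none rose (10.8%), and at the 8-cell stage 3 fell and 1 rose (5.06%). Sin3a was at 41.6 and 47.7 RPKM in control and 10.0 and 7.62 in MERVL-KD 4-cell embryos, and at 37.9 and 38.4 against 12.6 and 11.5 at the 8-cell stage. The treatments are well apart at both stages (log2 -2.33 ± 0.14, adjusted p = 2.38e-06; and -1.66 ± 0.10, adjusted p = 1.32e-06). Of 11 genes of the TGF-beta and SMAD pathway, to which Klf10 responds, 1 was called at the 2-cell stage: the ligand Tgfb2. Its levels were 46.0 and 37.9 RPKM in control and 12.6 and 15.3 in MERVL-KD embryos (log2 -1.51 ± 0.12, adjusted p = 5.68e-07), so it was lower at the stage at which Klf10 was lower. At any fold 3 of the 10 pathway genes tested at that stage rose and 1, Tgfb2, fell, where 14.1% of all genes passed. A site of MERVL-ASO1 with 4 mismatches lies in the transcribed strand of Tgfb2, and its part in that change was not tested. Such sites of MERVL ASOs also lie in other listed genes, none of which was called with the knockdown. None of the 10 tested was called at the later stages. Whether the change of Tgfb2 had a part in that of Klf10, or the reverse, was not tested.

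Of the 8 genes of the LIF and STAT3 pathway, which drives Klf4 and Klf5 in stem cells, 1 was called higher at the 2-cell stage (the ligand Lif, log2 1.30 ± 0.37, adjusted p = 0.0263, but 0.176 without control replicate 2 and 0.0574 without MERVL-KD replicate 2), 2 higher and 1 lower in 4-cell embryos and 1 lower in 8-cell embryos. At the 4-cell stage Lif was at 0.867 and 0.894 RPKM in control and 3.71 and 3.43 in MERVL-KD embryos (log2 2.02 ± 0.22, adjusted p = 0.000127). The receptor Lifr was at 0.145 and 0.180 against 0.654 and 0.666 RPKM (log2 2.03 ± 0.30, adjusted p = 0.00151), whereas the shared receptor chain Il6st was at 1.87 and 1.73 against 0.747 and 0.705 (log2 -1.30 ± 0.18, adjusted p = 0.00102). Both receptor chains were thus at low levels and changed in opposite directions. At the 8-cell stage Il6st was lower as well (log2 -1.47 ± 0.24, adjusted p = 0.00522). Of the 8 genes of the ERK5 and MEF2 pathway, upstream of Klf2, none was called at any stage (7 tested), and 1 rose at the 4-cell stage at any fold.

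Markers of the oocyte, of the 2-cell and cleavage stages and of other cells moved with some of these results. The summed level of the 11 oocyte markers was 689 to 694 RPKM in control and 467 to 519 in MERVL-KD 2-cell embryos, the stage at which Klf10 fell, and 3 of the 11 fell at any fold. The sum of the 8 markers of the 2-cell and cleavage stages was 411 to 455 against 231 to 292 RPKM, and 5 of the 8 fell. Among all genes 7.39% fell at any fold at that stage. Of the 8 markers 1 was called, Zscan4c (log2 -1.47 ± 0.16, adjusted p = 1.93e-05, but 0.180 with all 12 libraries in 1 fit). At the 4-cell stage the oocyte sums were 64.4 to 65.8 against 72.5 to 75.9 RPKM and none of the 11 passed. Those of the 2-cell and cleavage markers were 88.2 to 94.3 against 82.6 to 84.3 RPKM. Of these 8 markers 1 was called, Zfp352, which was lower (log2 -1.04 ± 0.27, adjusted p = 0.0317). It was not called with all 12 libraries in 1 fit (adjusted p = 0.366) or with scaling by library size (adjusted p = 0.0584). Its log2 was -0.88 without control replicate 2 and -0.72 without MERVL-KD replicate 2. The 9 blood and fibroblast markers summed to 1.88 to 2.45 RPKM in control and 4.45 to 4.50 in MERVL-KD 2-cell embryos, where 3 could be tested and none passed. At the 4-cell stage they summed to 0.649 to 1.98 RPKM in control and 4.86 to 9.43 in MERVL-KD 4-cell embryos, mostly from the globin Hba-a1 (11 and 41 counts in control, 131 and 255 in MERVL-KD libraries, log2 2.70 ± 0.63, adjusted p = 0.0266, but 0.0745 without MERVL-KD replicate 2). The other globins Hbb-bs and Hbb-bt had at most 4 counts in any library, and 6 or 7 of the 9 genes had a count. Of the cumulus cell markers, Star was called higher at the 2-cell stage (log2 1.14 ± 0.30, adjusted p = 0.0169, but 0.0867 without control replicate 1, 0.0557 without MERVL-KD replicate 1 and 0.128 with all 12 libraries in 1 fit), and the sum over the 14 genes overlapped between treatments there. The part of these markers in the values of the Kruppel-like factors was not tested.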

How the data were processed

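RNA-seq libraries were analysed in 12 samples (6 groups of 2). The authors aligned reads to mouse (GRCm38 per the labels, STAR 2.5.3a) and deposited raw counts per gene and repeat family from featureCounts. The strand and mate settings are not given in the sources used here. Among genes with 1 to 50 counts, 71.8 to 74.7% of counts were even. The chromatin accessibility libraries were not used here. Precision from counts covers counting error only, since reads carry no molecular identifiers.

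The deposited counts were filtered with filterByExpr, scaled by TMM and tested with edgeR 4.0.16 (robust quasi-likelihood fit): knockdown against control within each stage (4 libraries), and stage changes and differences of effects over all 12. P-values were Benjamini-Hochberg adjusted over all genes and repeat families. Alternatives were DESeq2 1.42.0, other scalings and filters, a replicate block, halved counts, other fits and leaving out each library. Scripts were tested on simulated data. RPKM used the exonic length in the files. Replicates are biological replicates of pooled embryos per the study. The members and lists were chosen with earlier results of these data known. Named genes are the 10 members and listed genes called in a knockdown comparison, at most 5 a list. Of 12 lists, Klf18 was not matched by name.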

Additional observations from a re-analysis of the deposited data

Results flagged for a closer look

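The effect of the knockdown on Klf10 differed between the 4-cell and the 2-cell stage, by a log2 of 1.83 (SE 0.24, edgeR adjusted p = 0.000159, over 8 libraries of these stages in a fit of 12). Klf10 was lower in both MERVL-KD libraries at the 2-cell stage and higher in both at the 4-cell stage. The same test passed for 5 of the listed genes called in a knockdown comparison. For the corepressor Sin3a the 4-cell effect was lower by a log2 of -2.02 (adjusted p = 3.84e-07). For the receptor chain Lifr it was higher by 2.23 (adjusted p = 0.00810), and for its partner Il6st lower by -1.24 (adjusted p = 0.00339). For the ligand Tgfb2 it was higher by 1.05 (adjusted p = 0.00368). For Krt8, a keratin of the trophectoderm, it was higher by 1.89 at the 4-cell than at the 2-cell stage (adjusted p = 0.00196), and the 8-cell effect was below the 4-cell effect by -2.33 (adjusted p = 0.00184).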

How the results depend on the processing

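With 2 libraries per group, single libraries decided several adjusted p-values of changes under 2-fold, as given beside them. Of the 13 member results called by edgeR, none turned direction in any alternative. In 2-cell embryos the number of members called with the knockdown was 0 with library size in place of TMM and 2 with no fold threshold. With no fold threshold it was 4 in 4-cell and 2 in 8-cell embryos, 8 in control and 8 in MERVL-KD embryos from the 2-cell to the 4-cell stage, and 3 in control embryos from the 4-cell to the 8-cell stage, where library size gave 0. For the difference between the 4-cell and 2-cell effects library size gave 2. For that between the 8-cell and 4-cell effects DESeq2 gave 1, DESeq2 size factors 1, no filter 2, at least 10 counts in every library 1 and halved counts 1. Leaving out each library gave 1 to 2 members in 2-cell embryos, 0 to 1 for control embryos from the 4-cell to the 8-cell stage and 0 to 1 for the difference between the 8-cell and 4-cell effects. The fit is assumed to hold for a group's lone library as for the others. The causes were not tested. Scaling by library size moved the median log2 change of all genes with the knockdown to 0.30, 0.09 and 0.13 at the 3 stages, the share of higher calls from 66.1 to 85.3% in 2-cell and from 37.7 to 56.0% in 8-cell embryos, and from the 4-cell to the 8-cell stage from 30.4 to 8.22% in control and from 20.3 to 7.39% in MERVL-KD embryos. For the differences of effects it went from 60.5 to 15.0% (4-cell minus 2-cell) and from 44.0 to 57.4% (8-cell minus 4-cell). Library size turned the direction of these log2 changes. They were the knockdown effect on Klf9 (0.142), Klf16 (0.0775) and Klf17 (0.131) in 2-cell embryos and on Klf5 (0.0211), Klf9 (0.0028), Klf13 (0.0401) and Klf17 (0.130) in 8-cell embryos, Klf4 from the 2-cell to the 4-cell stage in control (0.0337), Klf3 in control (-0.0906) and Klf2 (-0.0260) and Klf13 (-0.0382) in MERVL-KD embryos from the 4-cell to the 8-cell stage, and the 4-cell minus 2-cell difference for Klf4 (-0.0083) and Klf13 (-0.143). With all 12 libraries in 1 fit the knockdown effect turned for Klf13 in 2-cell (-0.0003) and Klf4 in 8-cell embryos (-0.0006). That on Klf17 in 8-cell embryos turned with no filter (0.0251), at least 10 counts in every library (0.0187), genes only (0.0113) and halved counts (0.0111). The 2-cell to 4-cell change of Klf17 in control turned with DESeq2 (-0.0411), DESeq2 size factors (-0.0411), no filter (-0.0019) and at least 10 counts (-0.0512). Klf10 from the 4-cell to the 8-cell stage in MERVL-KD embryos turned with DESeq2 (0.0034) and its size factors (0.0033). None of these passed the adjusted p. Leaving out single libraries turned the knockdown effect on Klf2 (-0.0979 to 0.430), Klf9 (-0.356 to 0.0135) and Klf13 (-0.0379 to 0.190) in 2-cell embryos, Klf2 (-0.296 to 0.0091) and Klf5 (-0.0834 to 0.194) in 4-cell embryos, and Klf4 (-0.184 to 0.174), Klf9 (-0.299 to 0.0742), Klf13 (-0.276 to 0.0845) and Klf17 (-0.193 to 0.160) in 8-cell embryos. It also turned Klf17 from the 2-cell to the 4-cell stage in control (-0.190 to 0.173) and, from the 4-cell to the 8-cell stage, Klf6 in control (-0.551 to 2.25) and Klf2 (-0.0383 to 0.311), Klf4 (-0.305 to 0.0772), Klf10 (-0.148 to 0.141), Klf13 (-0.0617 to 0.276) and Klf17 (-0.202 to 0.175) in MERVL-KD embryos. The 4-cell minus 2-cell difference turned for Klf2 (-0.516 to 0.0603), Klf5 (-0.288 to 0.0217) and Klf13 (-0.0809 to 0.304). Replicate numbers did not pair the libraries, since deviations of same-numbered libraries correlated at -0.0132, -0.0007 and 0.0074. With the replicate number as a block, 112 of 113 values kept direction and call. The exception was Klf4 in 8-cell embryos (-0.0026), and the rise of Klf10 in 4-cell embryos had an adjusted p of 0.0600.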

Other observations

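Klf8, a CtBP-dependent repressor outside the 10 genes, was at 1.32 and 1.13 RPKM in control and 1.35 and 0.999 in MERVL-KD 2-cell embryos, at 5.01 and 4.69 against 10.8 and 7.90 at the 4-cell stage, and at 7.04 and 7.52 against 6.53 and 8.33 at the 8-cell stage. Treatments are apart at the 4-cell stage and overlap at the others. The 4-cell effect exceeded the 2-cell effect by a log2 of 0.99 (edgeR adjusted p = 0.0371). Klf8 was singled out after its values were seen. In MERVL-KD embryos of the 4-cell stage the trophectoderm keratins Krt8 (2.14 and 2.82 against 12.5 and 14.3 RPKM, log2 2.45 ± 0.20, adjusted p = 2.01e-05) and Krt18 (log2 1.41 ± 0.28, adjusted p = 0.00725), downstream of the family in the blastocyst, rose together with 1 other of the 16 lineage and pluripotency genes tested, and none fell. Of all genes tested with the knockdown in 4-cell embryos, 4.92% rose and 5.84% fell at any fold. In 8-cell embryos 4 of the 16 fell at any fold and none rose, beside 3.56% of all genes that fell and 1.5% that rose.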
